A study of Mus musculus with 24 samples.

Results

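Delayed activity genes, which neurons switch on in a slower, secondary response to firing, were followed through the development of mTOR-dependent epilepsy in the mouse hippocampus. The 10 genes, of 55385 gene identifiers counted in each library, were taken by name, as secreted and synaptic proteins of this response. They were *Bdnf*, *Inhba*, *Fst*, *Nptx2*, *Nptx1*, *Homer1*, *Sorcs3*, *Ptgs2*, *Pcsk1* and *Rgs4*. All mice were adults of both sexes that carried floxed *Tsc1* on both alleles (Tsc1f/f) and received tamoxifen for 4 days. Controls (Tsc1-Cre-) lacked the Cre transgene, so that tamoxifen deleted nothing, and all of them were taken on day 8. Tsc1-Cre+ mice carried Tg(Camk2a-CreERT2), a tamoxifen-inducible Cre recombinase driven by the *Camk2a* promoter, which is active in excitatory forebrain neurons, and they were taken on day 4, day 6, day 8 or day 13 after the start of tamoxifen. A further Tsc1-Cre+ group received rapamycin, an inhibitor of mTORC1, at 10 mg/kg daily from day 4 and was taken on day 13. Each of the 6 groups held 4 mice, named A to D, and the libraries were made from total hippocampal RNA. A letter does not stand for the same animal, or for littermates, across groups as far as the labels say. In whole hippocampus, fewer cells of a type and less RNA per cell cannot be told apart, and the other cell types keep *Tsc1*.

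When neurons fire, transcription follows in waves. Immediate early genes such as *Fos*, *Egr1* and *Npas4* are switched on first and need no new protein. The delayed genes follow. They include growth factors, proteins that organise synapses, enzymes and a brake on G protein signalling. Several of these genes are known to rise in the hippocampus after seizures. Hamartin, the product of *Tsc1*, is part of the complex that holds mTORC1 in check.

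CREB binds the cAMP response element (CRE), written TGACGTCA, and its half-site TGACG, and the promoters below show where these letters lie in front of *Rgs4*, *Bdnf* and *Homer1*, which rose on day 13, and of *Pcsk1*, which was not called against control on any day. RefSeq promoter windows (GRCm38.p6) were at hand for 7 of the 10 genes, 14 windows in all, of which 7 were for the separate first exons of *Bdnf* and 2 for *Homer1*. The 250 bases before each start were searched on both strands. The half-site was in 4 of these 14 windows, against 17.8% of all 32851 promoters. The full CRE, which contains the half-site on both strands, was in 1 of 14, that of *Pcsk1*, against 1.55% of all promoters. The AP-1 motif TGANTCA was in 1 of 14, a *Bdnf* window, against 6.75% of all promoters. The half-sites and the CRE are in capitals below, and CGTCA is the half-site read from the other strand. The windows shown were picked because they hold a half-site. Those of *Rgs4*, *Bdnf* (1 of its 7) and *Homer1* (1 of its 2) are given whole. The other windows of *Bdnf* and *Homer1* held no half-site. For *Pcsk1* the 30 bases around its CRE are given, since the end of its window overlaps an annotated exon. A further half-site of *Pcsk1*, 50 bases before the start, lies outside the stretch shown. They read 5′ to 3′ along the gene, at chr1:169747643-169747892 (minus strand) for *Rgs4*, chr2:109692186-109692435 (plus) for *Bdnf*, chr13:93303507-93303756 (plus) for *Homer1* and chr13:75089768-75089797 (plus) for *Pcsk1*.
Rgs4: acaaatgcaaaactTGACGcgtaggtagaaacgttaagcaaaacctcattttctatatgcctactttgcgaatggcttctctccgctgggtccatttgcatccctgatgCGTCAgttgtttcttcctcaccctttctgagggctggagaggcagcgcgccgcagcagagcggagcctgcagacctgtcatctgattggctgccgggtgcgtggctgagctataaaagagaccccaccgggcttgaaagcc
Bdnf: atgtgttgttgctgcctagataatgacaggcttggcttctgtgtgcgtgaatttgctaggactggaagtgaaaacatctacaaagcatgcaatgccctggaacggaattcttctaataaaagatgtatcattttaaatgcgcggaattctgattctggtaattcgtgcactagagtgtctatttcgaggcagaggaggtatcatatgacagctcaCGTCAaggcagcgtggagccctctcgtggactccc
Homer1: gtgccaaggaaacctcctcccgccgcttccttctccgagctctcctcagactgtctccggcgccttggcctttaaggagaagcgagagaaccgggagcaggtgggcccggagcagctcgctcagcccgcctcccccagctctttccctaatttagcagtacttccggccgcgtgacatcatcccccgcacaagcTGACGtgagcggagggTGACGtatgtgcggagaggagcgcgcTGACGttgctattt
Pcsk1: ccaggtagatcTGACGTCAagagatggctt
The 3 half-sites of *Homer1* began 56, 40 and 14 bases before the start, the one of *Bdnf* 35 bases before it, and those of *Rgs4* 236 and 141 bases before it. The windows of *Inhba*, *Sorcs3* and *Ptgs2* held none of the 3 motifs. These matches are letters in a window, not measured binding. Gene counts also add up all starts of *Bdnf* and all isoforms of *Homer1*, including the short Homer1a, so which start was used was not measured here.

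The libraries held 28208561 to 126435936 counts (median 55582027). *Tsc1* itself lay between 103 and 109 CPM, that is counts scaled to a common library size, in the controls and between 57.4 and 81.7 CPM in the 20 Tsc1-Cre+ mice. Among markers of the tissue, all 3 dentate granule cell markers, all 3 CA1 pyramidal cell markers and all 3 markers of neurons were detected in every group. Summed choroid plexus markers ran from 37.7 to 1677 CPM across mice, and their ranges overlapped between all groups. Controls and day 8 mice shared animal-number prefixes (mice A and B one, mice C and D the other). The prefixes of the other groups were their own, so that prefix and group cannot be told apart there.

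No delayed gene was called on day 4 or day 6, 3 rose and 1 fell on day 8, and 7 rose on day 13, with *Nptx2* changing most (16.6 ± 1.41 CPM in controls and 206 ± 152 CPM on day 13, mean ± SD, n = 4). In mice on rapamycin none of them was called higher than in controls. A gene was called where edgeR's quasi-likelihood test across all genes gave a Benjamini-Hochberg adjusted p under 0.05 and the change exceeded 0.5 on the log2 scale. All 10 genes passed the filter on low counts in every comparison. None of the 10 was called on day 4, when 0.680% of all genes tested were, and none on day 6, when 1.32% were. DESeq2 also called 0 on both days, and 3 of the 10 on day 4 and 6 on day 6 had an unadjusted edgeR p under 0.05, beside 18.4% and 24.2% of all genes. On day 8, 4 of the 10 were called, against 3.99% of all genes: *Bdnf*, *Nptx2* and *Rgs4* rose (2.15% of all genes were called higher) and *Fst* fell. The day 8 count was 1, *Rgs4* alone, without any one control or without mouse A of day 8, 3 without mouse C and 5 without mouse D, and 3 with the animal-number prefix as a block. Of all genes, 586 to 1491 were called over the 8 fits without a mouse, and 934 of 25085 with that block. On day 13, 7 of the 10 were called, against 16.5% of all genes, and all 7 rose (8.40% of all genes were called higher). The 10 genes were chosen with earlier results of these data known, so these shares describe the list and do not test it. The median log2 fold change over the 10 genes was -0.05 for day 4, 0.10 for day 6, 0.38 for day 8 and 1.6 for day 13, whereas the medians over all genes tested were -0.005, -0.02, -0.03 and -0.04. An F test over all 6 groups at an adjusted p under 0.05 picked 8 of the 10, against 41.9% of all genes. The exceptions were *Nptx1*, with an edgeR adjusted p of 0.130, and *Fst*, with 0.0877.

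**Figure D1:**
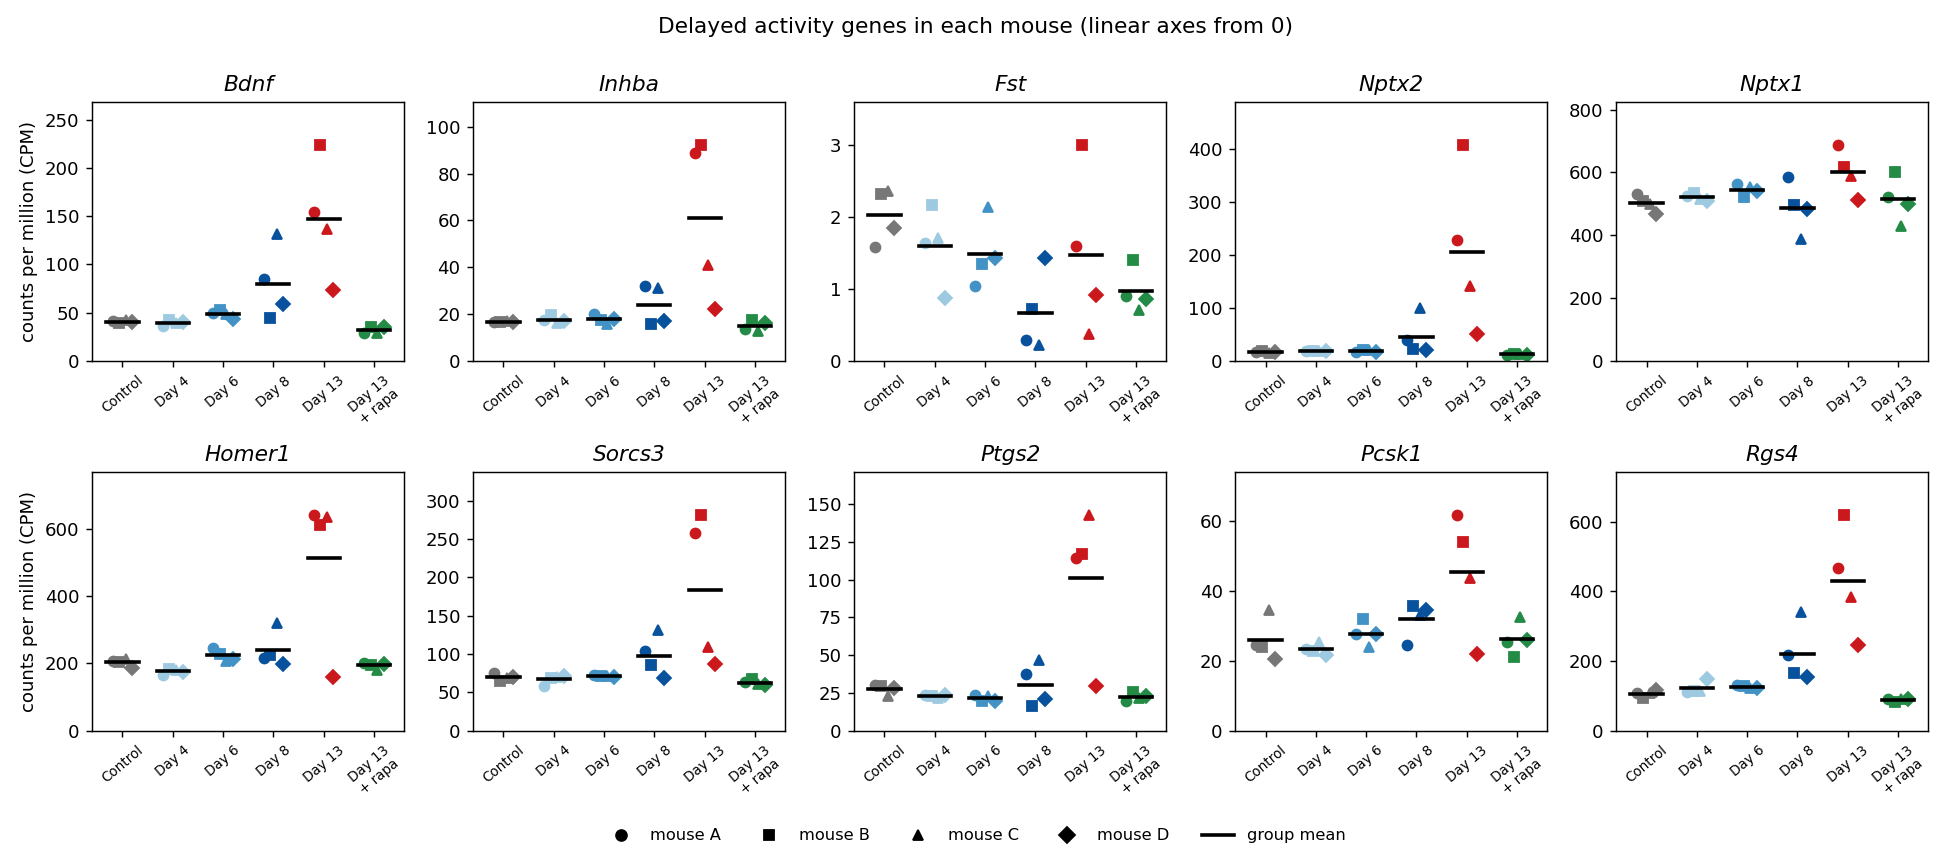
CPM (linear axes that start at 0) of the 10 delayed activity genes in each of the 24 mice; the marker shape gives the mouse within its group, and the bar is the mean of 4 mice. On day 13 mice A to C lie high for most genes, *Nptx2* reaches 406 CPM in mouse B, and mouse D lies lowest for 9 of the 10 genes.

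**Figure D2:**
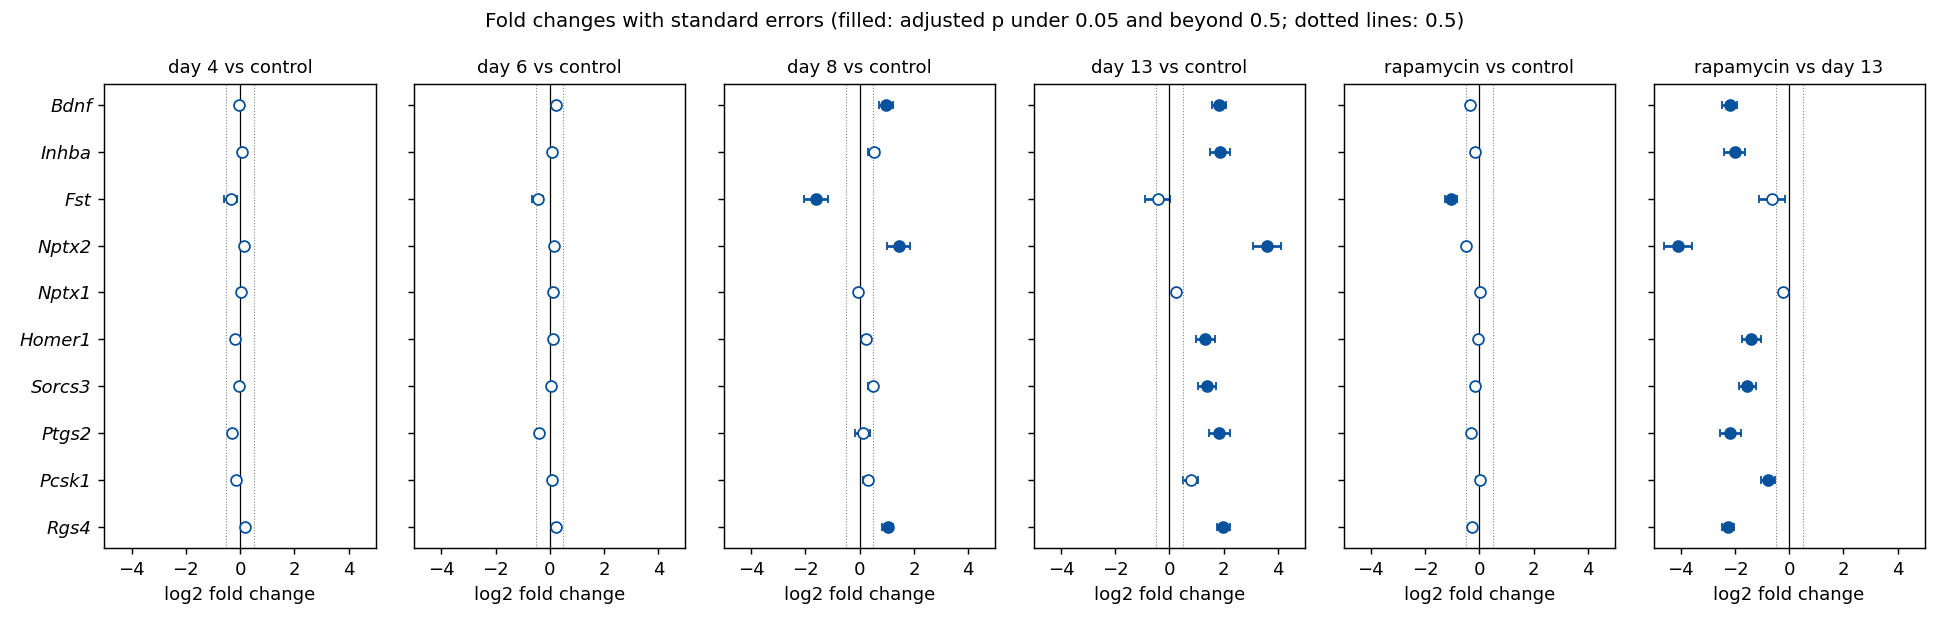
Log2 fold changes of the 10 genes with their standard errors in 6 comparisons of 4 against 4 mice; filled points were called and dotted lines mark 0.5 in either direction. Filled points on the right of 0 appear for 3 genes on day 8 and 7 on day 13, and filled points on the left for 8 genes when rapamycin is set against day 13.

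*Bdnf* (chr2:109674700-109727007, plus strand, GENCODE M21 on GRCm38) encodes brain-derived neurotrophic factor, the secreted ligand of the receptor TrkB, which strengthens excitatory synapses. Controls varied little, with 41.2, 38.9, 42.4 and 40 CPM in mice A to D (coefficient of variation 3.66%). On day 6 it read 49.6, 52.5, 48.1 and 43.1 CPM, so that all 4 mice were above all 4 controls, and on day 8 it read 84.9, 44.6, 131 and 58.9 CPM. By day 13 the mice had 154, 224, 137 and 73.5 CPM. The day 6 difference was small (log2 fold change 0.24, SE 0.06, edgeR adjusted p = 0.0145) and under the minimum of 0.5. The change was 0.96 (SE 0.26, edgeR adjusted p = 0.0322) on day 8 and 1.83 (SE 0.26, edgeR adjusted p = 0.00157) on day 13. On each of these days the groups did not overlap, and the two-sided exact permutation test gave p = 0.0286, the smallest that 4 against 4 mice allow. The share of all genes separated from controls in this way was not counted for any day, here or for the genes below. Without a control mouse, or without mouse A of day 8, the day 8 change lost its call (largest edgeR adjusted p = 0.0839), and without mouse C of day 8 it was 0.61 (edgeR adjusted p = 0.0305), whereas the day 13 call held in all 8 fits that left out a mouse. A noncoding gene on the other strand, *Gm45346*, overlaps its exons and had at most 124 counts in any library, beside 826 to 26211 for *Bdnf*.

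Partner genes of the 10 were read in 8 lists. Of their 84 tested entries 19 were called on day 13, 9 higher and 10 lower, beside 16.5% of all genes. Of 11 listed receptors, ligands and processing proteins of the neurotrophins, 10 could be tested on day 13 and 2 were called, 1 in each direction. *Ntf3*, the related ligand neurotrophin-3, fell from 5.67 ± 0.47 to 1.62 ± 0.30 CPM (mean ± SD, n = 4; log2 fold change -1.84, SE 0.17, edgeR adjusted p = 0.000291). *Plat*, which encodes the tissue plasminogen activator that helps to release mature BDNF, rose from 37.2 ± 1.08 to 86.2 ± 33.6 CPM (log2 fold change 1.19, SE 0.23, edgeR adjusted p = 0.00635). *Ntrk2*, the gene of the receptor TrkB, was not called on day 13 (log2 fold change 0.17, SE 0.10, edgeR adjusted p = 0.220).

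*Inhba* (chr13:16011851-16031621, plus strand) encodes the inhibin beta A chain, whose dimer is activin A, and *Fst* (chr13:114452290-114458951, minus strand) encodes follistatin, which binds and inactivates activin. *Inhba* had the least spread of all 10 genes in controls, at 16.4, 16.5, 16.8 and 16.7 CPM. On day 8 mice A and C read 31.8 and 31.1 CPM while mice B and D, at 15.6 and 17.2 CPM, stayed near the controls. The day 8 change of 0.51 (SE 0.20, edgeR adjusted p = 0.124) was not called. Without mouse B of day 8 it was 0.67 (edgeR adjusted p = 0.0295). On day 13 *Inhba* read 88.7, 92.2, 40.9 and 22.2 CPM, all above the controls (log2 fold change 1.85, SE 0.37, edgeR adjusted p = 0.00727).

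*Fst* went the other way on day 8, at a low level. Controls had 1.58, 2.32, 2.36 and 1.84 CPM, and day 8 mice 0.284, 0.726, 0.225 and 1.43 CPM, all below the controls (log2 fold change -1.61, SE 0.45, edgeR adjusted p = 0.0388). These day 8 values rest on 12 to 78 counts a library, and the call held in 1 of the 8 fits that left out a mouse (largest edgeR adjusted p = 0.0992). On day 13 the mice were spread over 1.6, 2.99, 0.369 and 0.913 CPM, from below to above the control range, and no change was called (edgeR adjusted p = 0.514). The ratio of *Inhba* to *Fst* CPM lay between 7.12 and 10.4 in controls, from 12.1 to 138 in day 8 mice and from 24.3 to 111 in day 13 mice, so that every mouse of those days was above the controls. It ran from 9.02 to 19.2 on day 4 and from 7.35 to 19.1 on day 6, overlapping the controls. With rapamycin it ran from 12.5 to 18.7, above them. In mouse B of day 8 the ratio was 21.5 although its *Inhba*, at 15.6 CPM, was below every control. The highest ratios on day 8 were in mice A (112) and C (138), in which *Inhba* was high and *Fst* low. These ratios are described only, since both genes were already tested. *Gm47040*, a noncoding gene on the opposite strand, overlaps *Fst* exons and had at most 6 counts in a library.

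Of the 15 other genes of the activin pathway, 5 were called on day 13, 1 higher and 4 lower, beside 16.5% of all genes. The higher one was *Acvr1c*, a type I receptor of the activin family (ALK7), at 38.8 ± 2.76 CPM in controls and 122 ± 41.4 CPM on day 13 (mean ± SD, n = 4; log2 fold change 1.63, SE 0.20, edgeR adjusted p = 0.00101). *Inhbb*, the beta B chain of activin B, fell by 1.23 on the log2 scale (SE 0.20, edgeR adjusted p = 0.00265), so the 2 beta chains of activin moved in opposite directions. *Acvr2b*, a type II receptor, fell by 0.97 (SE 0.17, edgeR adjusted p = 0.00398). *Inhbb* and *Acvr2b* were also called lower on day 8.

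**Figure D3:**
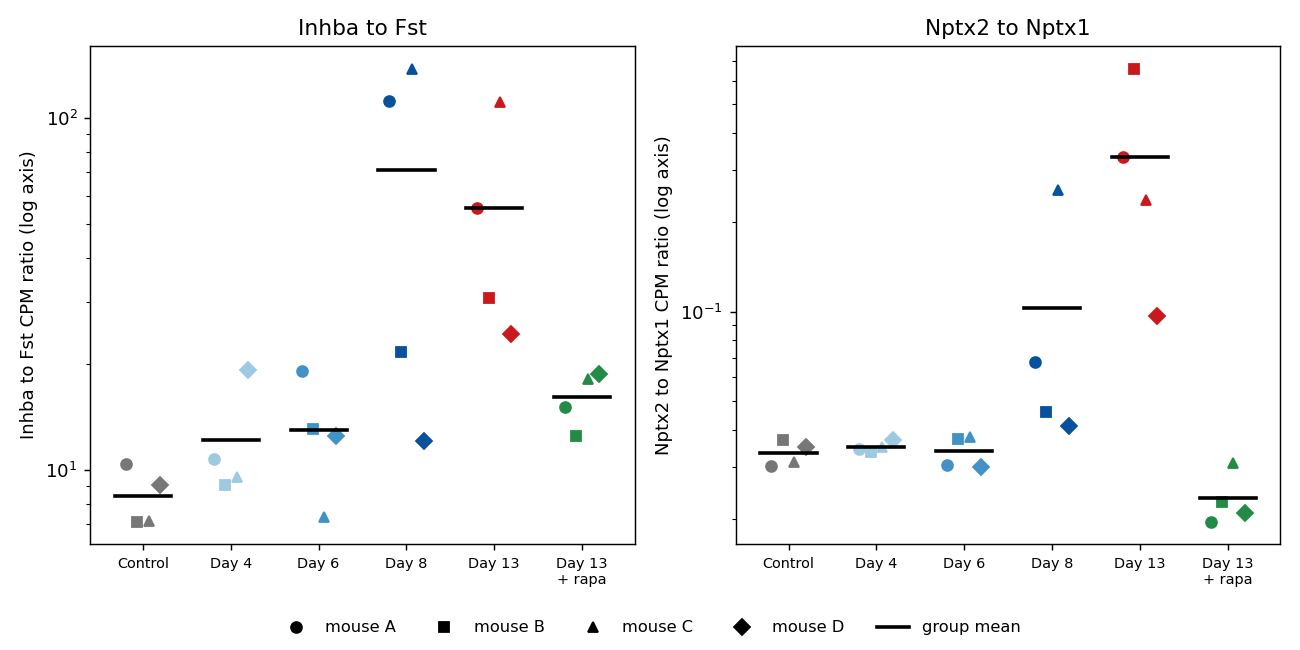
Ratio of CPM values in each mouse on log axes, for *Inhba* to *Fst* (left) and *Nptx2* to *Nptx1* (right); marker shapes give the mouse and bars the mean of 4 mice. All 4 mice of day 8 and of day 13 lie above the 4 controls in both panels, and the 4 rapamycin mice lie above the controls on the left (12.5 to 18.7) and mostly below them on the right.

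*Nptx2* (chr5:144545902-144557478, plus strand) and *Nptx1* (chr11:119538719-119547753, minus strand) encode secreted neuronal pentraxins, which gather AMPA receptors at excitatory synapses. *Nptx2*, also called Narp, is known as the member that activity induces, and it moved most of the 10 genes here. Controls had 16.0, 18.7, 15.6 and 16.3 CPM, day 8 mice 39.7, 22.8, 99.6 and 19.9 CPM and day 13 mice 228, 406, 140 and 49.7 CPM. All 4 mice of each day were above all controls. The log2 fold change was 1.43 (SE 0.42, edgeR adjusted p = 0.0467) on day 8 and 3.60 (SE 0.52, edgeR adjusted p = 0.00168) on day 13. The day 8 call was lost without any one control or without mouse A of day 8 (largest edgeR adjusted p = 0.113) and with the animal-number prefix as a block (1.36, edgeR adjusted p = 0.0671). Without mouse C of day 8 the change was 0.71 (edgeR adjusted p = 0.0355). Within the prefixes, day 8 exceeded control by 0.80 (mice A and B) and 1.48 (mice C and D) in log2 CPM, with 2 against 2 mice and no test.

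*Nptx1* was called in none of the comparisons. It read 532, 508, 501 and 466 CPM in controls and 687, 616, 590 and 513 CPM on day 13, and the groups overlapped (log2 fold change 0.24, SE 0.09, edgeR adjusted p = 0.0706). On day 8 its highest value was in mouse A (585 CPM) and its lowest in mouse C (388 CPM), the mouse with the most *Nptx2*. The *Nptx2* to *Nptx1* ratio was 0.0332 ± 0.0032 in controls and 0.331 ± 0.239 on day 13 (mean ± SD, n = 4). *Nptxr*, the membrane-bound pentraxin receptor, was the only one of 8 listed AMPA receptor and pentraxin partners called on day 13, and rose from 417 ± 44.6 to 767 ± 98.1 CPM (log2 fold change 0.86, SE 0.10, edgeR adjusted p = 0.000874). The 4 AMPA receptor subunit genes were not called, *Gria2* with a log2 fold change of -0.40 (SE 0.12, edgeR adjusted p = 0.0326) that was under the minimum.

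*Homer1* (chr13:93299635-93405129, plus strand) encodes a postsynaptic scaffold that ties metabotropic glutamate receptors to calcium stores, and its short form Homer1a, made after activity, breaks these ties. Controls had 208, 205, 213 and 185 CPM, and day 8 mice 214, 224, 319 and 199 CPM. On day 13 mice A, B and C reached 641, 613 and 635 CPM while mouse D had 161 CPM, below every control. The day 13 change was 1.32 (SE 0.35, edgeR adjusted p = 0.0216). Leaving out any one control or mouse A of day 13 raised the edgeR adjusted p to between 0.0513 and 0.0646, and leaving out mouse D gave 1.61 (edgeR adjusted p = 3.73e-05). On day 4 all 4 mice, between 165 and 183 CPM, lay just below the controls (log2 fold change -0.20, SE 0.05, edgeR adjusted p = 0.0381), a difference under the minimum of 0.5. Of 8 listed partners, 3 were called on day 13, beside 16.5% of all genes. *Homer3* rose (0.92, SE 0.09, edgeR adjusted p = 0.000483), whereas *Itpr1*, the gene of an IP3 receptor that Homer proteins bind, fell by 0.84 (SE 0.14, edgeR adjusted p = 0.00311) and *Grm5*, that of the receptor mGluR5, fell by 0.55 (SE 0.16, edgeR adjusted p = 0.0329).

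*Sorcs3* (chr19:48206025-48805505, plus strand) encodes a sorting receptor of the VPS10P family found at postsynaptic sites. It had 75.2, 64.5, 68.0 and 69.2 CPM in controls and between 69.8 and 72.3 CPM on day 6. Day 8 mice read 104, 84.9, 131 and 68.7 CPM, of which 3 were above all controls (log2 fold change 0.48, SE 0.16, edgeR adjusted p = 0.0671). The day 13 mice had 258, 281, 108 and 86.4 CPM, all above the controls, and the change of 1.38 (SE 0.34, edgeR adjusted p = 0.0155) was called in all 8 fits that left out a mouse. Of 4 other receptors of the family, *Sorcs1* was called on day 13, from 27.9 ± 4.25 to 93.3 ± 47.8 CPM (mean ± SD, n = 4; log2 fold change 1.71, SE 0.32, edgeR adjusted p = 0.00522), and also on day 8 (0.89, SE 0.26, edgeR adjusted p = 0.0465). *Sort1*, the gene of sortilin, which sorts BDNF, was not called (log2 fold change -0.32, SE 0.11, edgeR adjusted p = 0.0531).

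*Ptgs2* (chr1:150100031-150108227, plus strand) encodes cyclooxygenase-2, which makes the precursor of prostaglandins and in brain is induced in neurons. Controls had 30.3, 29.8, 23.1 and 28.0 CPM and day 6 mice 23.6, 19.3, 22.8 and 19.5 CPM (log2 fold change -0.40, SE 0.09, edgeR adjusted p = 0.0124), a difference under the minimum of 0.5 with 1 overlapping mouse. Day 8 mice read both above and below the controls, at 37.8, 16.4, 46.5 and 20.8 CPM, and no change was called (edgeR adjusted p = 0.824). On day 13 mice A to C had 114, 117 and 143 CPM and mouse D had 29.6 CPM, inside the control range (log2 fold change 1.84, SE 0.38, edgeR adjusted p = 0.00795).

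Among 13 other genes of prostaglandin synthesis, breakdown and reception, 2 were called on day 13, beside 16.5% of all genes. *Hpgd*, which breaks prostaglandins down, rose by 2.67 on the log2 scale (SE 0.72, edgeR adjusted p = 0.0237), from between 1.10 and 1.74 CPM in controls to between 1.80 and 22.2 CPM. *Ptger1*, an E2 receptor gene, fell by 0.60 (SE 0.17, edgeR adjusted p = 0.0309). *Ptgs1*, the constitutive cyclooxygenase, was not called (0.59, SE 0.34, edgeR adjusted p = 0.221).

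*Pcsk1* (chr13:75089826-75134861, plus strand) encodes prohormone convertase 1/3, which cuts neuropeptide precursors. Of the 10 genes it had the widest spread in controls (24.3, 24, 34.4 and 20.5 CPM; coefficient of variation 23.1%). Day 13 mice had 61.7, 53.9, 43.6 and 21.9 CPM, so mice A to C were above every control and mouse D was not. The day 13 change of 0.79 (SE 0.28, edgeR adjusted p = 0.0597) was not called. It was 1.02 (edgeR adjusted p = 0.00395) without mouse D, and it was also called by DESeq2 and by edgeR on all 24 mice. Of 9 other processing genes, *Pcsk5* was called on day 13, with 28.8 ± 3.22 CPM in controls and 73.2 ± 53.4 CPM on day 13 (mean ± SD, n = 4; log2 fold change 1.32, SE 0.42, edgeR adjusted p = 0.0448).

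*Rgs4* (chr1:169741477-169747642, minus strand) encodes a regulator of G protein signalling that shortens the signal of Gi- and Gq-coupled receptors. Controls had 107, 93.9, 108 and 116 CPM, day 6 mice 131, 128, 121 and 122 CPM, day 8 mice 218, 165, 340 and 154 CPM and day 13 mice 466, 620, 384 and 247 CPM. All mice of day 6, day 8 and day 13 were above all controls, and all mice of day 8 above all of day 6. The shares of all genes separated in these ways were not counted. The log2 fold change against control was 0.23 (SE 0.05, edgeR adjusted p = 0.0138) on day 6, which is under the minimum, 1.03 (SE 0.21, edgeR adjusted p = 0.00912) on day 8 and 1.99 (SE 0.23, edgeR adjusted p = 0.000683) on day 13. *Rgs4* alone of the 4 genes called on day 8 kept its call in all 8 fits that left out a mouse (largest edgeR adjusted p = 0.0339). Of 17 related genes, 4 were called on day 13, 2 in each direction, beside 16.5% of all genes. *Rgs2* rose by 1.83 (SE 0.28, edgeR adjusted p = 0.00230) and *Rgs14*, known as a marker of CA2, by 0.67 (SE 0.11, edgeR adjusted p = 0.00355), while *Rgs12* fell by 0.59 (SE 0.13, edgeR adjusted p = 0.0103).

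**Figure D4:**
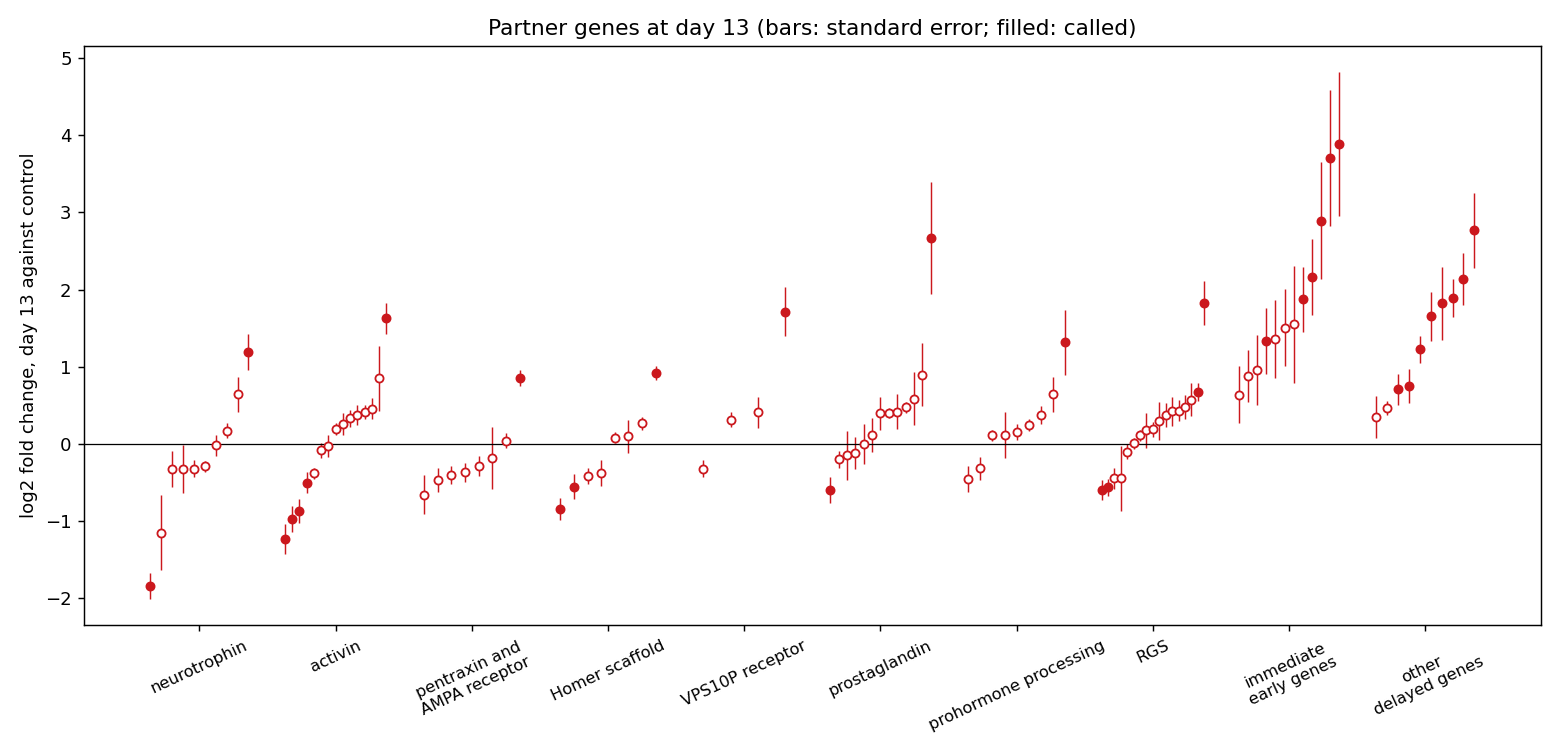
Log2 fold changes with standard errors on day 13 against control for the genes of the 10 lists tested beside the members, sorted within each list; filled points were called. In the lists of receptors, relatives and enzymes most points are open and lie on both sides of 0, while all called immediate early and other delayed genes lie above 0.

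The immediate early genes, of the first wave, were read in the same mice. Over the 12 immediate early genes listed, edgeR called none on day 8, beside 3.99% of all genes. Of the 12, 1 had an unadjusted edgeR p under 0.05, beside 28.9% of all genes. The difference between this list and the delayed genes was not tested. On day 13, 6 of the 12 rose, beside 8.40% of all genes called higher. The largest changes were those of *Fos* (log2 fold change 3.89, SE 0.93, edgeR adjusted p = 0.0145), *Egr2* (3.70, SE 0.88, edgeR adjusted p = 0.0142) and *Fosb* (2.89, SE 0.76, edgeR adjusted p = 0.0211). *Fos* had 3.25 to 6.79 CPM in controls and 102, 51.9, 151 and 1.78 CPM in day 13 mice A to D. Mouse D of day 13 lay below every control for *Fos*, and 9 of its 12 immediate early genes were below every control and none above. In the same mouse *Bdnf*, *Inhba*, *Nptx2*, *Sorcs3* and *Rgs4* were above every control, while *Homer1* and *Fst* were below every control. The median deviation from the control mean in mouse D was 0.21 in log2 CPM over the 10 delayed genes and -0.79 over the 12 immediate early genes, against 1.48 to 2.05 and 1.19 to 2.52 in mice A to C.

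In 7 of the 10 genes day 8 mice A and C stood apart from mice B and D. This split was seen in these same values. The share of all genes that divide the 4 mice in this way was not counted. In mice A and C *Bdnf*, *Inhba*, *Nptx2*, *Ptgs2*, *Sorcs3* and *Rgs4* were the highest 2 of the 4 values and *Fst* the lowest 2. The median deviation from the control mean was 0.52 in mouse A and 0.83 in mouse C, and 0.14 in mouse B and 0.02 in mouse D. Over the 12 immediate early genes the highest median on day 8 was in mouse B instead (0.37, against -0.17 in mouse A and -0.25 in mouse C). No test was made between mice within a group. The summed astrocyte markers were highest in the same mice. The summed level of the 5 markers was 1357 and 1678 CPM in day 8 mice A and C, 831 and 890 CPM in mice B and D, 1048 to 1087 CPM in controls and 1153 to 2088 CPM on day 13, and none of the 5 was at 0. The 5 genes did not move together: *Gfap* had a log2 fold change of 1.28 on day 8 (SE 0.52, edgeR adjusted p = 0.127) and 1.91 on day 13 (SE 0.35, edgeR adjusted p = 0.00466), *Gja1* fell on both days by 0.56 and 0.93, the other three were not called, and the median over the 5 was 0.002 on each day. Summed microglial markers lay between 151 and 166 CPM on day 8, below all controls (169 to 204 CPM), and those of neurons between 1903 and 2377 CPM. On day 13 the summed thalamus markers, between 66.0 and 92.5 CPM, lay below all controls (114 to 262 CPM; exact permutation p = 0.0286), and 1 of these 3 genes was called lower. Those of day 6, between 93.3 and 97.5 CPM, also lay below all controls (exact permutation p = 0.0286), again with 1 gene called lower. On day 8 mouse C had 258 CPM, whereas mice A, B and D had 80.5, 99.9 and 102 CPM. Control mouse D had 262 CPM and the other controls 114 to 131 CPM. The part of these markers in the day 8 and day 13 results was not tested.

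**Figure D5:**
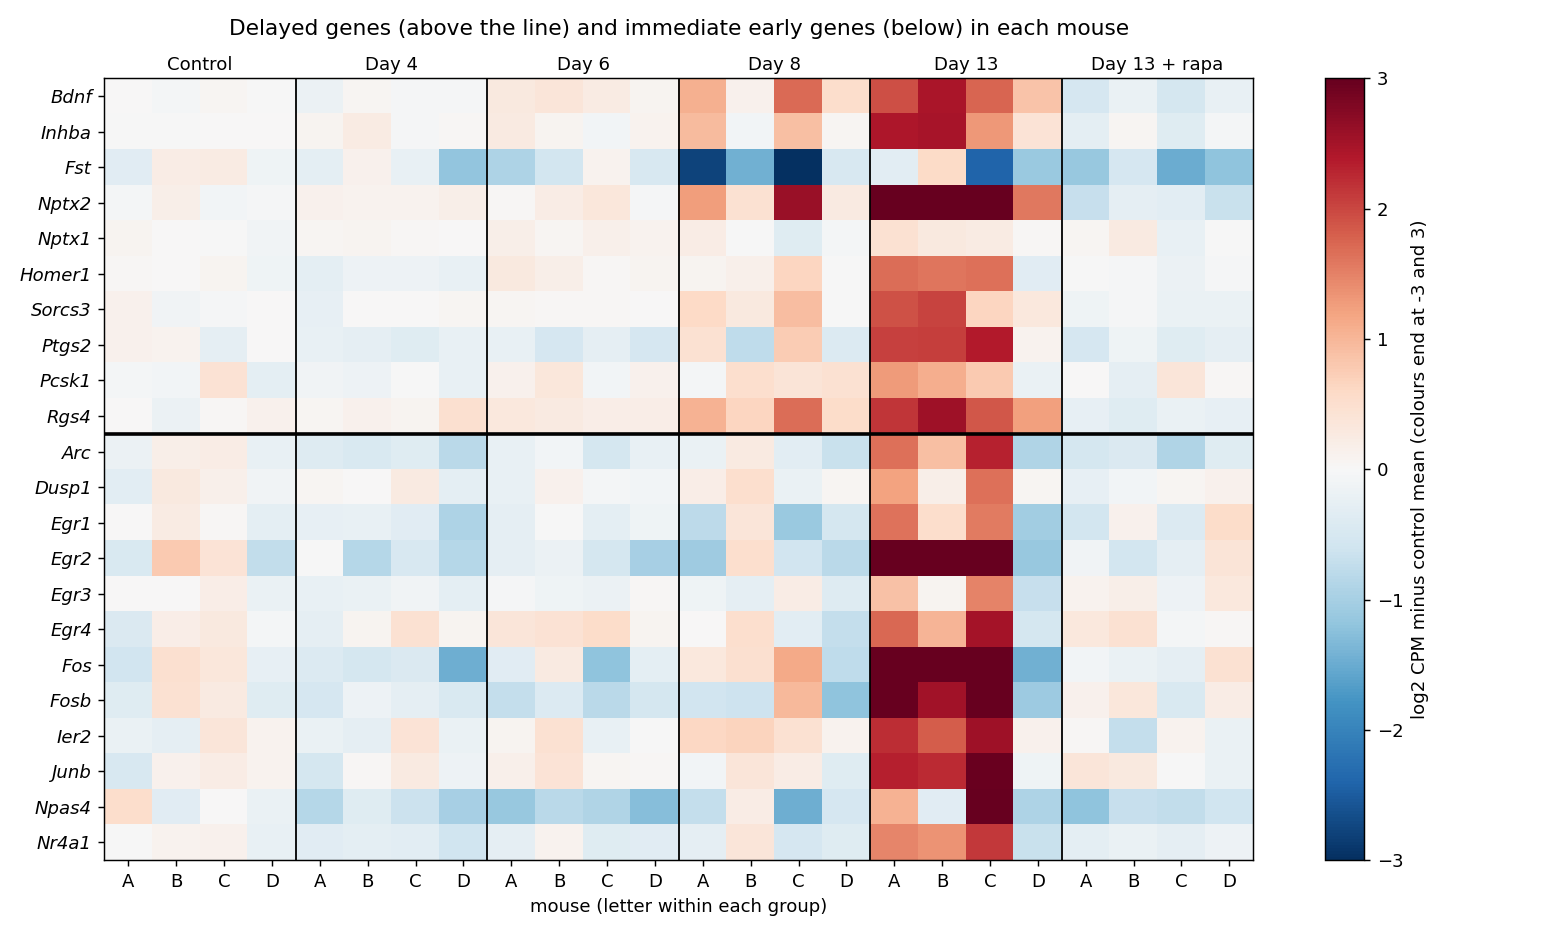
Log2 CPM minus the control mean for the 10 delayed genes (above the thick line) and 12 immediate early genes (below) in each of the 24 mice; colours end at -3 and 3. Day 8 columns A and C are red for most delayed genes and mixed for the immediate early genes, and day 13 column D is red for *Bdnf*, *Nptx2* and *Rgs4* but blue for most immediate early genes.

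The 10 other delayed activity genes listed were counted in the same way. On day 8, 3 rose (*Scg2*, *Vgf* and *Plk2*), beside 2.15% of all genes called higher. On day 13, 8 rose, beside 8.40% of all genes. On day 13 *Gadd45b*, a regulator of DNA demethylation, rose by 2.77 (SE 0.49, edgeR adjusted p = 0.00418), *Penk*, the enkephalin precursor, by 2.13 (SE 0.34, edgeR adjusted p = 0.00251) and *Scg2*, a granin of dense core vesicles, by 1.89 (SE 0.24, edgeR adjusted p = 0.00110). The median log2 fold change over these 10 genes was 0.37 on day 8 and 1.44 on day 13, beside -0.03 and -0.04 over all genes tested.

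Rapamycin mice were compared with controls and with untreated mice of the same day. Against untreated day 13 mice, 8 of the 10 genes were called, against 21.1% of all genes, and all 8 were lower (11.2% of all genes were called lower). *Nptx2* had 10.2, 13.7, 13.2 and 10.5 CPM with rapamycin, a log2 fold change of -4.09 (SE 0.52, edgeR adjusted p = 0.000791). *Rgs4* had 89.4, 82.8, 91.5 and 89.4 CPM, a log2 fold change of -2.27 (SE 0.22, edgeR adjusted p = 0.000278). *Bdnf* had 28.7, 35.5, 28.3 and 34.8 CPM, a log2 fold change of -2.19 (SE 0.27, edgeR adjusted p = 0.000641). *Ptgs2* fell by 2.16, *Inhba* by 2.01, *Sorcs3* by 1.54, *Homer1* by 1.39 and *Pcsk1* by 0.78, with edgeR adjusted p-values of 0.00282, 0.00406, 0.00731, 0.0132 and 0.0467. For *Bdnf*, *Inhba*, *Nptx2*, *Ptgs2*, *Sorcs3* and *Rgs4* all 4 rapamycin mice lay below all 4 untreated mice (exact permutation p = 0.0286), as they did for 17.7% of all genes tested. *Pcsk1* kept its call in 1 of the 8 fits without a mouse, the fit without mouse D of day 13, and had an adjusted p of up to 0.121 in the others. *Nptx1* (-0.22, SE 0.12, edgeR adjusted p = 0.179) and *Fst* (-0.63, SE 0.50, edgeR adjusted p = 0.357) were not called.

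Against controls, 1 of the 10 genes was called in rapamycin mice, beside 1.41% of all genes. This was *Fst*, at 0.902, 1.40, 0.708 and 0.853 CPM, all below the controls (log2 fold change -1.06, SE 0.22, edgeR adjusted p = 0.0212). The call of *Fst* was lost in 5 of the 8 fits without a mouse (largest edgeR adjusted p = 0.0706). Under the minimum of 0.5 lay *Nptx2* (-0.48, SE 0.10, edgeR adjusted p = 0.0236), *Bdnf* (-0.35, SE 0.08, edgeR adjusted p = 0.0241) and *Rgs4* (-0.26, SE 0.06, edgeR adjusted p = 0.0334), each with all 4 rapamycin mice below all 4 controls. The share of all genes separated in this way was not counted for this comparison. With no fold minimum 4 of the 10 genes were called, beside 3.57% of all genes. The median over the 10 genes was -0.20, and 0.006 over all genes tested. The controls were not given rapamycin and were taken on day 8, so an effect of the drug on intact tissue and one on Tsc1-Cre+ tissue cannot be told apart. In rapamycin mice 2 of the 12 immediate early genes were called lower against controls, *Npas4* (-0.82, SE 0.18, edgeR adjusted p = 0.0266) and *Arc* (-0.56, SE 0.12, edgeR adjusted p = 0.0221), and so was *Penk* among the other delayed genes (-0.60, SE 0.14, edgeR adjusted p = 0.0350). Summed astrocyte markers, at 834 to 886 CPM, microglial markers, at 124 to 142 CPM, and endothelial markers, at 99.1 to 110 CPM against 117 to 142 CPM, also lay below all controls. Of these lists 2 of 5, 2 of 5 and 1 of 4 genes were called lower, as were 2 of 4 oligodendrocyte markers, and their part in these differences was not tested. Without the drug, the summed astrocyte markers (881 to 919 CPM) and microglial markers (150 to 160 CPM) of day 6 mice also lay below all controls. The controls had 1048 to 1087 and 169 to 204 CPM, and 0 genes of these 2 lists were called on day 6. Of the 12 immediate early genes, 2 were called lower on day 4 and 2 on day 6, also without the drug. Of all genes 0.680% and 1.32% were called on these days, in either direction. *Npas4* had 3.79 to 5.94 CPM on day 4 and 3.15 to 4.37 CPM on day 6, below the lowest control (6.02 CPM). *Arc* had 62.0 to 83.4 CPM on day 4, below the lowest control (91.8 CPM), and overlapped the controls on day 6. The part of rapamycin in the lower *Npas4* and *Arc* was not tested.

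From day 6 to day 8 and from day 8 to day 13 edgeR called none of the 10 genes. DESeq2 called none either, with 9 of the 10 tested in the first step and 10 in the second, whereas edgeR without the low-count filter called *Rgs4* in the first (adjusted p = 0.0288). From day 6 to day 8 the share of all genes called was 0.229%, 5 of the 10 had an unadjusted p under 0.05 beside 17.1% of all genes, and the largest changes of the 10 were *Nptx2* (1.28, SE 0.42, edgeR adjusted p = 0.167), *Fst* (-1.17, SE 0.47, edgeR adjusted p = 0.246) and *Rgs4* (0.79, SE 0.20, edgeR adjusted p = 0.102). From day 8 to day 13 the share was 0%, with 0 genes of 24747 called by edgeR and 241 by DESeq2, while 3479 genes (14.1%) and 8 of the 10 had an unadjusted p under 0.05. In that step *Nptx2* differed by 2.16 (SE 0.66, edgeR adjusted p = 0.303) and *Ptgs2* by 1.72 (SE 0.47, edgeR adjusted p = 0.303). A single fit on all 24 mice, which shares 1 estimate of the spread among the groups, called 7 of the 10, beside 4.95% of all genes.

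Per kilobase of exon, the levels in controls ran from *Nptx1* at 96.2 ± 5.17 CPM per kb down to *Fst* at 0.441 ± 0.083 CPM per kb (mean ± SD, n = 4). *Rgs4* (34.3), *Homer1* (16.9) and *Sorcs3* (9.71) followed *Nptx1*, with ranges that did not overlap. *Nptx2* (6.57), *Bdnf* (6.53) and *Ptgs2* (6.07) lay within each other's spread, and *Pcsk1* (4.60) overlapped *Ptgs2*. *Inhba* came next at 2.60 CPM per kb. On day 13 the mean of *Rgs4* was 139 and that of *Nptx2* 81.2 CPM per kb, beside 115 for *Nptx1*, with ranges that overlapped for all 3 genes.

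Genes with the most similar course were sought among 18259 genes with a mean of at least 1 CPM, by the root mean square difference over 24 mice of log2 CPM from the control mean. This is a description, with no test. *Scg2* was nearest to *Rgs4* (0.18) and to *Bdnf* (0.22), and *Rgs2* (0.25) was next for *Bdnf*. *Stat3* (0.13) and *Klf10* (0.16) were nearest to *Sorcs3*, *Hk2* and *Bag3* (0.21 and 0.22) to *Inhba*, and *Rheb*, the activator of mTORC1, and *Ier5* (both 0.23) to *Homer1*. Among the 10 genes themselves *Bdnf* and *Rgs4* were the closest pair (0.21). The nearest to *Nptx2* were *Serpina3n* and *Blnk* at 0.50 and 0.51, and *Fst* stood farthest away, at 0.81 from *Pdyn*. These differences were not scaled to the size of a gene's own change. The root mean square deviation from the control mean was 1.55 for *Nptx2* and 1.22 for *Fst*, beside 0.61 for *Homer1*.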

How the data were processed

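Total hippocampal RNA of 24 mice was sequenced from stranded, rRNA-depleted libraries. The authors deposited raw read counts per gene for each mouse. The submitters' processing notes name cutadapt 1.16.5, STAR 2.7.2b, featureCounts 1.6.4 and mm10, and the strand setting used for counting is not given in the sources used here. Of the 55385 identifiers, 55144 were found in GENCODE M21, used here for names and positions.

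Each comparison used the 8 mice of its groups in edgeR 4.0.16 (R 4.3.3; TMM, filterByExpr, quasi-likelihood test, Benjamini-Hochberg adjustment over all genes), with a call at an adjusted p under 0.05 and a log2 fold change over 0.5 in size. The study tested with DESeq2, used here (1.42.0) as an alternative. The F test over the 6 groups used all 24 mice and no fold minimum. SE was the log2 fold change divided by the root of F. CPM was scaled by TMM over the 24 mice, and log2 CPM had a prior count of 0.5. Exact permutation tests were two-sided over 70 arrangements. The scripts were tested on simulated data. Where nothing says otherwise, p-values measure the spread between the mice of a group. Depth (28208561 to 126435936 counts) limits *Fst* most.

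Mice were grouped by the labels. The members and lists were chosen with earlier results of these data known. Named were all 10 members, from each list up to 3 genes with the largest change among those called on day 13 and up to 2 with rapamycin against control, and for each member called in a comparison the 2 genes of most similar course. *Ntrk2*, *Sort1*, *Ptgs1*, *Gria2*, *Vgf*, *Plk2*, *Gfap*, *Gja1*, *Gm45346* and *Gm47040* stand outside this rule and were chosen after their values were seen. Alternatives were another test, another normalization, all 24 mice in the fit, no low-count filter, no fold minimum, thinned counts, a replicate block, an animal-number prefix block on day 8, and each mouse left out.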

Additional observations from a re-analysis of the deposited data

Results flagged for a closer look

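In 3 of the 60 groups of 4 mice, 1 per gene and group, a single mouse lay apart from the other three by Dixon's criterion (the gap to the nearest mouse over the whole range), which chance exceeds in about 1 of 20 groups. *Homer1* in mouse D of day 13 had 161 CPM, below the 613 to 641 CPM of mice A to C (gap over range 0.940). *Rgs4* in mouse D of day 4 had 147 CPM, above the 111 to 115 CPM of the others (0.883). *Nptx2* in mouse D of day 4 had 18.8 CPM, above the 17.9 to 18.0 CPM of the others (0.859), a difference of less than 1 CPM.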

How the results depend on the processing

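Leaving out 1 mouse at a time moved the number of the 10 genes called between 0 and 0 on day 4 and on day 6, 1 and 5 on day 8, 6 and 8 on day 13, 0 and 2 for rapamycin against control, 7 and 8 for rapamycin against day 13, 0 and 3 from day 6 to day 8, 0 and 1 from day 8 to day 13, and 8 and 9 in the F test. Over the same fits the number of all genes called ran from 83 to 211 on day 4 and from 217 to 429 on day 6. It ran from 586 to 1491 on day 8 and from 2800 to 5305 on day 13. For rapamycin it ran from 235 to 348 against control and from 3608 to 6025 against day 13. It ran from 0 to 482 from day 6 to day 8 and from 0 to 57 from day 8 to day 13. In the F test it ran from 9930 to 12261. With no fold minimum, 1 gene was called on day 4, 3 on day 6 and 4 for rapamycin against control, beside 4.16%, 10.1% and 3.57% of all genes. In the last comparison edgeR on all 24 mice called 0 (0.598% of all genes) and thinned counts 2 (1.48%). From day 6 to day 8, 1 gene (*Rgs4*, edgeR adjusted p = 0.0288) was called without the low-count filter (0.474% of all genes), and from day 8 to day 13 edgeR on all 24 mice called 7 (4.95%). The cause was not tested. With the mouse letter as a replicate block, 3 genes were called on day 8 (*Nptx2* lost, edgeR adjusted p = 0.0956), 8 on day 13 (*Pcsk1* added, edgeR adjusted p = 0.0487) and 7 for rapamycin against day 13 (*Pcsk1* lost, edgeR adjusted p = 0.0783). Over all genes this block gave 797 calls of 25085 on day 8, 3546 of 24920 on day 13 and 4531 of 24274 for rapamycin against day 13. The letters name different animals, and the deviations of mice that share one correlated between -0.457 and 0.280 across genes. Control and day 8 mice of the same letter also share an animal-number prefix.

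The direction of uncalled changes turned in few settings. *Pcsk1* with rapamycin against control was -0.013 in thinned counts. Over fits without 1 mouse, *Sorcs3* ran from -0.075 to 0.015 and *Pcsk1* from -0.25 to 0.024 on day 4, *Sorcs3* from -0.0017 to 0.073 and *Pcsk1* from -0.00021 to 0.26 on day 6, and *Nptx1* from -0.15 to 0.042 and *Ptgs2* from -0.17 to 0.32 on day 8. *Nptx1* ran from -0.054 to 0.11 and *Pcsk1* from -0.10 to 0.19 with rapamycin against control, and *Homer1* from -0.082 to 0.16 from day 6 to day 8. With a mouse left out, 581 single-gene values kept direction and side of the threshold, 34 lost and 12 gained a call. Under the other settings 543 kept both, 4 lost and 20 gained a call.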
